A study of Mus musculus with 20 samples.

Results

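Macrophage marker genes were followed in bulk RNA sequencing of mouse skeletal muscle. The set held Cd163, Mrc1, C1qa, C1qb, C1qc, Csf1r, Adgre1, Cd68, Lyz2 and Fcgr1, taken by name as common markers of macrophages. It was chosen with earlier results of these data known, as were the gene lists used below. The members are 10 of 53465 gene identifiers in the tables, and all 10 were among the 15709 genes that passed the filter on low counts. Of the members, 9 exceeded 0.338 CPM (counts adjusted to an equal library size), the level at which the filter counts a library, in all 20 libraries. Fcgr1 exceeded it in 5 of 10 female and 10 of 10 male libraries, so it could pass through the males alone.

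All mice were labelled wild type and differed in sex and training: female non-trained, female trained, male non-trained and male trained, with 5 libraries in each group. The labels used here name the tissue only as muscle and give no strain, age, exercise protocol or collection time. The series title concerns exercise, mitochondria and the decline of muscle function with age. Nothing in the labels ties a library to a separate animal, so p-values measure only the spread between these samples.

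Macrophages of resting muscle lie in the connective tissue between fibres, where they clear debris, take up released haemoglobin and iron, and release growth factors. They depend on signalling through the receptor that Csf1r encodes. After injury, monocytes from the blood enter the muscle, carry the chemokine receptor Ccr2, and pass from an inflammatory to a repairing state. Cd163 and Mrc1 are usually read as markers of resident or repairing cells. The Fc receptor gene Fcgr1 is labelled inflammatory-type here, but it is not specific to recruited or activated cells. Csf1r, Adgre1, Cd68 and Lyz2 are found in resident and recruited cells alike.

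In the GENCODE M21 annotation of GRCm38 the C1q genes were neighbours on the minus strand of chromosome 4, C1qb at 136880129 to 136886187, C1qc at 136889804 to 136893065 and C1qa at 136895917 to 136898803, within 18675 bases. The other members lay apart, each on a chromosome of its own. Cd163 was at 124304656 to 124330527 of chromosome 6 and Mrc1 at 14229392 to 14332057 of chromosome 2, both on the plus strand. Adgre1 was at 57358691 to 57483527 of chromosome 17, also on the plus strand. On the minus strand were Cd68 at 69664213 to 69666153 of chromosome 11, Lyz2 at 117277331 to 117282321 of chromosome 10 and Fcgr1 at 96282909 to 96293969 of chromosome 3. Lyz1, a close copy of Lyz2, stood at 0.402 to 8.11 CPM, and how reads were divided between the copies is an estimate.

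The bases before the transcription starts are shown for 5 of the members, as a description. Whether any factor binds them, or whether they bear on the members' levels, was not tested. RefSeq promoters of the GRCm38.p6 assembly were available for 7 of the 10 members, all but C1qa, Csf1r and Adgre1. The letters AGGAAG, the core to which ETS factors such as PU.1 of myeloid cells bind, were searched on both strands in the 250 bases before the start. They were present in 5 of 7 members (Mrc1, C1qb, C1qc, Lyz2 and Fcgr1) and in 29.5% of 32851 promoters of the same length. The TATA box letters TATAAA were in 0 of 7 members and in 12.4% of the promoters. Below, capitals mark AGGAAG or its reverse complement CTTCCT. The Fcgr1 run holds 2 copies that share bases, and Cd68 is shown as a member without one. For C1qc and Mrc1 the outermost start in GENCODE M21 lies within the 250 bases searched. Their runs are cut there, to 99 and 228 bases. The sequences run 5′ to 3′ on the gene's strand and are chr4:136886201-136886450 (minus) for C1qb, chr4:136893066-136893164 (minus) for C1qc, chr2:14229164-14229391 (plus) for Mrc1, chr3:96293970-96294219 (minus) for Fcgr1 and chr11:69666171-69666420 (minus) for Cd68.
C1qb: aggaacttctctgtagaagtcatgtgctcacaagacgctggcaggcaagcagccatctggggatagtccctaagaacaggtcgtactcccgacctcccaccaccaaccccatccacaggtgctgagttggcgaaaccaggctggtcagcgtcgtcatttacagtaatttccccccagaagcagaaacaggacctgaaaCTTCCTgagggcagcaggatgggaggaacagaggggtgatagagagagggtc
C1qc: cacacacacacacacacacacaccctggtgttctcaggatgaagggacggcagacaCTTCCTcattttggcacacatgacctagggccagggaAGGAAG
Mrc1: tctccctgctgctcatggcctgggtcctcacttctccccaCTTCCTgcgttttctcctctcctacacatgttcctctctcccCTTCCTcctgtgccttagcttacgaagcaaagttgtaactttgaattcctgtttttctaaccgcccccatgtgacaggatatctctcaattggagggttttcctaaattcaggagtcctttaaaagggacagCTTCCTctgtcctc
Fcgr1: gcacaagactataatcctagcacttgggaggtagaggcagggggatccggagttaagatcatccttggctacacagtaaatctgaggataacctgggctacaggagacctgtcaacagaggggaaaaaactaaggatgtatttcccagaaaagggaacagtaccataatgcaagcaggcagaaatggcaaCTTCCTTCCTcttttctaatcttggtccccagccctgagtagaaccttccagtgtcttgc
Cd68: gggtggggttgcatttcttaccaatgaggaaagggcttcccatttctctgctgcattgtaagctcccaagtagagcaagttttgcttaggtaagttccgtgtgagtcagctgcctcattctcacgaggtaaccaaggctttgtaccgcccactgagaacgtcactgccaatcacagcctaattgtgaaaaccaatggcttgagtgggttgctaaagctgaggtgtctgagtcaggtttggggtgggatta

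The libraries held 22043145 to 38483572 expected counts. Muscle fibre markers summed to 107600 to 152900 CPM per library, against 45.19 to 696.8 CPM for the 10 members; the share of all macrophage transcripts in this RNA was not measured. A pair of libraries stood apart. Female non-trained library 1 had 18727 genes above 0, against 19806 to 21449 in the others, and the lowest summed fibroblast (118.4 CPM) and tendon (16.61 CPM) markers of its group. Male trained library 3 had the highest level of 9 of the 10 members among all 20 libraries. The main results on the members are given with and without these libraries. Likeness of genes outside the set to the members, and differences of single listed genes, use all 20 libraries only.

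Relative to all counts, male muscle held more RNA of every member than female muscle. Averaged over the training states, the male to female ratio ran from 2.21 for Cd163 to 4.74 for Fcgr1, and 10 of 10 members were called higher at an adjusted p of 0.05 in edgeR's quasi-likelihood test. Of all 15709 genes, 9.91% were called higher, 8.03% lower and 17.9% in either direction in that comparison. Because the members were chosen with earlier results of these data known, these shares give scale and are not a test of the set. The median log2 difference of the members was 1.52, against 0.0032 over all genes tested. In bulk tissue, more macrophages and more RNA per macrophage cannot be told apart. Training changed no member past the threshold in either sex.

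**Figure D1:**
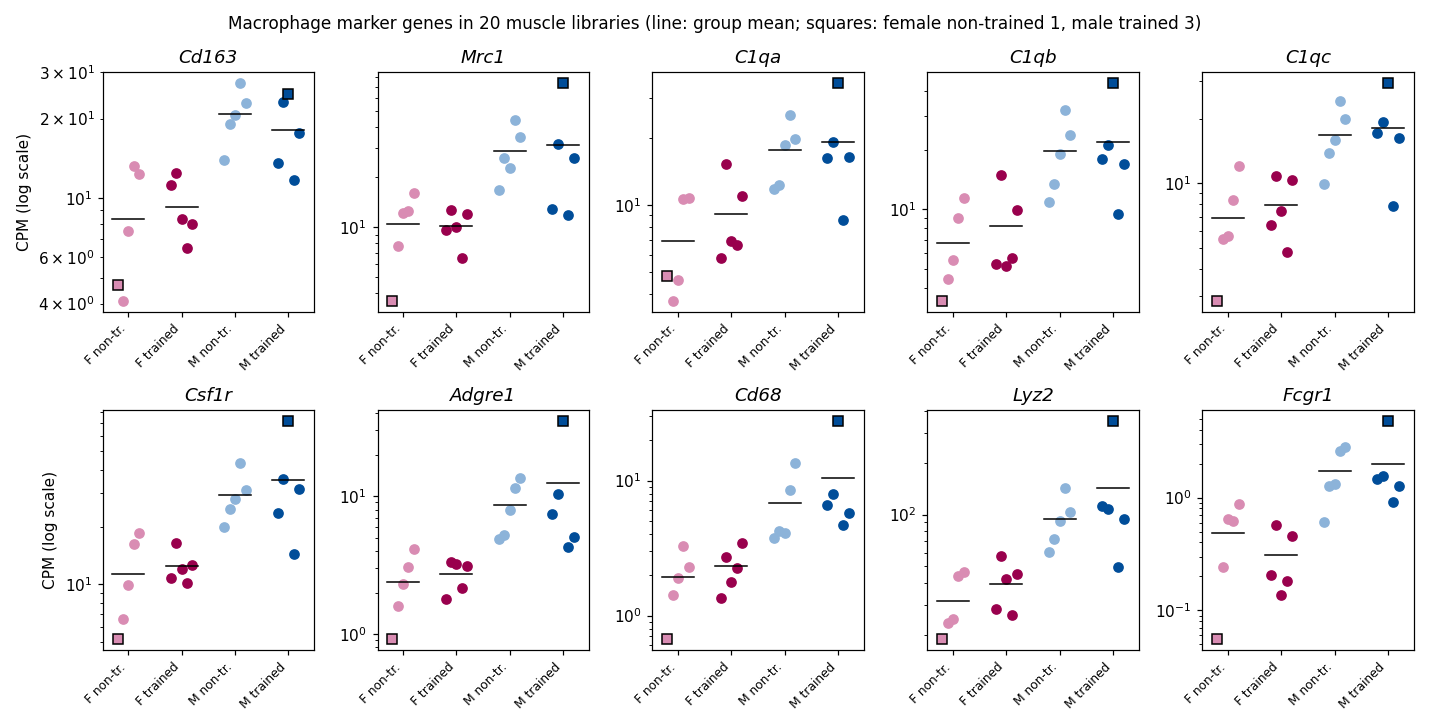
Level of the 10 macrophage marker genes in each of 20 muscle libraries, in CPM on a log axis of its own for each gene. Points are libraries in the 4 groups of 5, lines are group means, and squares are female non-trained library 1 and male trained library 3. Most male points lie above most female points for each gene, and the trained and non-trained points of each sex overlap.

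Among the scavenger receptors, Cd163 encodes the receptor that takes up haemoglobin bound to haptoglobin. Its level in the 5 female non-trained libraries was 4.70, 4.11, 7.55, 13.2 and 12.3 CPM, and in the female trained ones 11.2, 12.5, 8.34, 6.46 and 7.98 CPM. In male non-trained libraries it was 13.9, 19.1, 20.6, 27.3 and 22.9 CPM, and in male trained ones 13.6, 23.1, 24.8, 11.7 and 17.6 CPM. Every non-trained male was above every non-trained female, while the lowest trained male lay below the highest trained female. The averaged log2 difference was 1.14 (SE 0.22, adjusted p = 0.00149), the smallest of the 10.

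Mrc1 encodes the mannose receptor CD206, which binds sugars on glycoproteins and microbes. Female non-trained libraries held 3.61, 7.72, 12.1, 12.5 and 15.97 CPM and female trained ones 9.66, 12.7, 10.02, 6.54 and 11.99 CPM. Male non-trained libraries held 16.7, 26.1, 22.6, 44.6 and 34.9 CPM and male trained ones 12.9, 31.8, 74.3, 11.9 and 26.3 CPM. The non-trained groups did not overlap, and in trained males the values spread widely (31.4 ± 25.5 CPM, SD, n = 5), with library 3 the highest of all 20. Averaged over training the log2 difference was 1.56 (SE 0.33, adjusted p = 0.00366).

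C1qa, C1qb and C1qc encode the chains of C1q, the recognition molecule that starts the classical complement pathway and tags synapses, dead cells and immune complexes for removal. C1qb stood at 3.44, 4.41, 5.51, 9.05 and 11.4 CPM in female non-trained and at 5.29, 15.0, 5.17, 5.70 and 9.97 CPM in female trained libraries. It stood at 10.96, 13.5, 19.2, 31.99 and 23.9 CPM in male non-trained and at 18.03, 21.3, 44.0, 9.53 and 17.1 CPM in male trained libraries. The highest female library, trained library 2, exceeded the first and second non-trained males and the fourth trained male. C1qa ranged from 3.74 to 15.31 CPM over the 10 female and from 8.58 to 35.11 CPM over the 10 male libraries, and C1qc from 2.85 to 12.08 and from 7.87 to 29.35 CPM. The averaged log2 differences were 1.21 for C1qa (SE 0.27, adjusted p = 0.0055), 1.49 for C1qb (SE 0.31, adjusted p = 0.00307) and 1.23 for C1qc (SE 0.26, adjusted p = 0.00309).

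The 3 chains, which join in equal numbers in the protein, had similar RNA levels per length. As shares of their summed TPM (transcript levels scaled by length and to one total per library), C1qa took a median of 35.1%, C1qb 34.8% and C1qc 29.2% over the 20 libraries. The share of C1qa spanned 29.5% to 45.7% over single libraries and was tightest in trained males (34.4% ± 0.647, SD, n = 5). In female non-trained libraries, where the counts are lowest, it was 36.1% ± 6.74 (SD, n = 5).

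Csf1r encodes the receptor for the growth factors CSF1 and IL-34, on which most tissue macrophages depend. It lies on the plus strand of chromosome 18 at 61100598 to 61132149, where Hmgxb3 overlaps it on the opposite strand; whether counting used strand is not stated, so their reads may not be fully separated. It stood at 5.17, 6.598, 9.98, 16.2 and 18.5 CPM in female non-trained and at 10.8, 16.4, 12.1, 10.2 and 12.6 CPM in female trained libraries. Male non-trained libraries held 19.96, 24.9, 28, 43.2 and 31.4 CPM and male trained ones 23.8, 35.6, 71.9, 14.5 and 31.5 CPM. Apart from male trained library 4, every male library was above every female one. The averaged log2 difference was 1.45 (SE 0.27, adjusted p = 0.00156).

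Adgre1 encodes F4/80, the classical surface antigen of mouse macrophages. The 5 female non-trained libraries held 0.923, 1.61, 2.30, 3.08 and 4.12 CPM and the trained ones 1.79, 3.33, 3.22, 2.15 and 3.10 CPM. The male non-trained libraries held 4.90, 5.19, 7.996, 11.6 and 13.7 CPM and the trained ones 7.42, 10.3, 35.1, 4.29 and 5.09 CPM. All 10 male libraries were above all 10 female ones, as they were for Cd68, a lysosomal membrane glycoprotein of phagocytes. Such full separation, with males higher, held for 2 of the 10 members and for 1.02% of all genes; the opposite held for 0.516%.

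Cd68 stood at 0.671 to 3.29 CPM in female non-trained, 1.34 to 3.45 CPM in female trained, 3.77 to 13.6 CPM in male non-trained and 4.67 to 27.61 CPM in male trained libraries. Of the last group, library 3 held 27.61 CPM and the next highest 7.96 CPM. The averaged log2 difference was 2.03 for Adgre1 (SE 0.38, adjusted p = 0.00147) and 2.02 for Cd68 (SE 0.37, adjusted p = 0.00123).

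Lyz2 encodes lysozyme M, an enzyme that cleaves bacterial cell walls, made by macrophages, monocytes and neutrophils alike. It was the most abundant member per length, with a median of 62.3 TPM and 43.5% to 60.4% of the members' summed TPM in each library. Levels were 19.0, 23.4, 24.8, 44.0 and 46.6 CPM in female non-trained and 28.3, 57.5, 42.0, 26.0 and 44.9 CPM in female trained libraries. They were 61.0, 71.8, 91.3, 143 and 104 CPM in male non-trained and 112, 107, 349.9, 49.3 and 94.0 CPM in male trained libraries. Male trained library 4 alone among the males overlapped the females. The averaged log2 difference was 1.71 (SE 0.31, adjusted p = 0.00116).

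Fcgr1 encodes CD64, the high-affinity receptor for IgG. It was the least abundant member per length, with a median of 0.535 TPM over the libraries. Females held 0.0559, 0.243, 0.648, 0.615 and 0.876 CPM without training and 0.206, 0.573, 0.136, 0.183 and 0.453 CPM with it. Males held 0.612, 1.27, 1.31, 2.59 and 2.81 CPM without training and 1.45, 1.55, 4.76, 0.914 and 1.27 CPM with it. The trained groups did not overlap. Its averaged log2 difference of 2.24 (SE 0.42, adjusted p = 0.00116) was the largest of the 10, but its 95% interval of 1.36 to 3.13 overlapped that of Cd163, 0.69 to 1.60, and differences between members were not tested.

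Per length, the members kept a wide order of abundance below Lyz2. The medians over the libraries were 17.5 TPM for C1qa, 16.6 TPM for C1qb and 13.4 TPM for C1qc. They were 6.83 TPM for Csf1r, 5.11 TPM for Cd163, 5.10 TPM for Cd68, 4.09 TPM for Mrc1 and 2 TPM for Adgre1. Neighbours in this order, such as C1qa and C1qb or Cd163 and Cd68, differed by less than the spread over libraries.

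**Figure D2:**
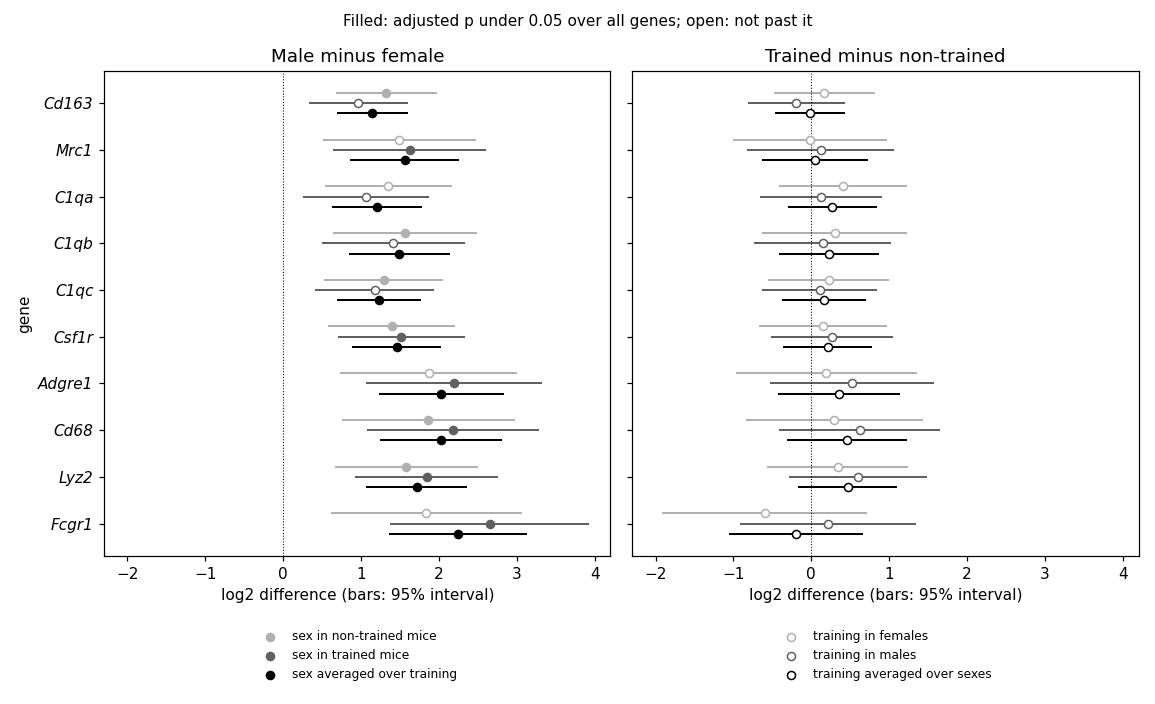
Log2 differences of the 10 members with 95% intervals, male minus female at left and trained minus non-trained at right, each within a group and averaged. Filled points passed an adjusted p of 0.05 over all genes in edgeR's quasi-likelihood test. The averaged sex differences lie between 1.14 and 2.24, and every training interval crosses 0.

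The sex difference was also present within each training state, closer to the threshold. In non-trained mice 6 of 10 members were called higher, where 3.14% of all genes were, 2.07% were called lower and 5.21% were called in either direction. Cd163 had the lowest adjusted p (0.0174) with one of the smaller log2 differences (1.32, SE 0.31), and Lyz2 (1.58), Csf1r (1.39), C1qb (1.57), C1qc (1.29) and Cd68 (1.86) had adjusted p from 0.0429 to 0.0484. C1qa (1.35) and Adgre1 (1.87) had adjusted p = 0.0514, and Mrc1 (1.49) and Fcgr1 (1.84) 0.0702. The libraries of the sexes did not overlap for 7 members (Cd163, Mrc1, C1qa, Csf1r, Adgre1, Cd68 and Lyz2), against 3.98% of all genes with males higher and 2.39% with males lower.

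In trained mice 6 of 10 members were again called higher, where 3.39% of all genes were, 2.22% were called lower and 5.6% were called in either direction. Fcgr1 (2.65, SE 0.61, adjusted p = 0.0146), Lyz2 (1.84), Cd68 (2.18), Adgre1 (2.20), Csf1r (1.51) and Mrc1 (1.62) passed. Cd163 (0.96) and the C1q genes (1.06 to 1.42) had adjusted p from 0.0642 to 0.115. Only Adgre1, Cd68 and Fcgr1 had no overlap between the trained sexes, against 3.92% of all genes with males higher and 3.46% with males lower. Whether the sex difference itself changed with training was tested by the interaction, in which edgeR's quasi-likelihood test called 0 of 10 members, each at adjusted p = 0.999.

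Single libraries decided the counts within a training state. Without male trained library 3, 0 of 10 members were called in trained mice, although all 10 log2 differences stayed above 0 (0.72 to 2.03, median 1.05), and 10 of 10 were called in non-trained mice. The share of all genes called in either direction was then 3.09% in trained and 6.5% in non-trained mice. Without female non-trained library 1 the count was 1 in non-trained and 7 in trained mice, beside 3.7% and 7.76% of all genes. Without both it was 6 and 4, beside 4.98% and 4.63% of all genes. In non-trained mice the count was also 1 without female non-trained library 2 or 3, female trained library 5, any of male non-trained libraries 2 to 5, or male trained library 2. It was 2 without male trained library 1, 3 without library 1, 3 or 4 of the trained females or library 5 of the trained males, and 9 without male non-trained library 1. In trained mice it was 2 without female trained library 1 or 4 and 3 without female trained library 3. The number of all genes called moved too when 1 library was left out, from 435 to 1038 in non-trained and from 494 to 1239 in trained mice. Over these settings and the other alternatives, the log2 differences stayed between 1.07 and 2.16 in non-trained and between 0.72 and 2.98 in trained mice.

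The averaged sex difference did not depend on 1 library. With each of the 20 libraries left out in turn, 10 of 10 members were called higher. Across those fits, 2247 to 2909 genes in all were called in either direction. Without both libraries that stood apart, 10 of 10 were called, with log2 differences of 0.97 to 1.78 and a median of 1.16, while 13.7% of all genes were called in either direction.

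Training was compared within each sex. In females, 8 of 10 members had a log2 difference above 0, with a median of 0.21, from -0.60 for Fcgr1 to 0.41 for C1qa. In males 9 of 10 were above 0, with a median of 0.18, from -0.19 for Cd163 to 0.62 for Cd68. The edgeR test called 0 of 10 members in each sex, with lowest adjusted p = 0.831 in females and 0.993 in males, and 0% of all genes. Unadjusted p was under 0.05 for 1347 genes in females and 676 in males, none of them a member, and DESeq2 called 24 and 5 genes.

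The trained and non-trained libraries overlapped for 10 of 10 members in each sex. Among all genes, the trained libraries were all higher for 0.637% in females and 0.535% in males, and all lower for 0.713% and 0.554%. The 95% intervals reached from -1.92 to 1.43 in females and from -0.92 to 1.65 in males. Among males the interval was widest for Fcgr1 (-0.92 to 1.34) and narrowest for Cd163 (-0.82 to 0.43).

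The sign of the small male training differences rested on 1 library. Without male trained library 3 all 10 members were below 0 in males, from -0.47 to -0.05 with a median of -0.24. In females, leaving out non-trained library 1 gave 6 members above 0 and 4 below, with a median of 0.01. Averaged over both sexes, the members' median log2 training difference was 0.21, the lowest adjusted p was 0.69 (Lyz2), and 0 of 10 members passed, beside 0.0127% of all genes (2 genes). At an unadjusted p under 0.05 that comparison held 1441 genes, none of them a member, and DESeq2 called 24 genes and limma-voom 0. In the interaction of training and sex, 0% of all genes passed, 656 genes had an unadjusted p under 0.05, and DESeq2 called 1.

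Resident-type against general or inflammatory-type markers were compared within each library as a difference of log2 TPM, a ratio of levels per length. This is a description with no test. Mrc1 against Lyz2 averaged -3.43 ± 0.316 in female non-trained and -3.93 ± 0.197 in female trained libraries (SD, n = 5 each). It averaged -3.67 ± 0.226 in male non-trained and -4.19 ± 0.601 in male trained libraries (SD, n = 5 each). In each sex the trained mean was the lower, and the ranges overlapped, -4.10 to -3.60 against -3.69 to -2.91 in females.

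Mrc1 against Cd68 went the same way, from 0.383 ± 0.44 to -0.27 ± 0.355 in females and from 0.106 ± 0.442 to -0.618 ± 0.451 in males (SD, n = 5 each). Cd163 against Cd68 was below 0 in 5 of 5 male trained libraries, from -1.97 in library 3 to -0.282, while male non-trained libraries ran from -0.968 to 0.527. The Cd163 means moved less in females than in males. In females they went from 0.221 ± 0.399 to -0.0472 ± 0.556 against Cd68 and from -3.59 ± 0.312 to -3.71 ± 0.456 against Lyz2. In males they went from 0.0208 ± 0.605 to -0.738 ± 0.698 and from -3.75 ± 0.154 to -4.31 ± 0.724 (SD, n = 5 each). Averaged over the sexes, the trained minus non-trained difference was -0.689 for Mrc1 against Cd68, -0.509 for Mrc1 against Lyz2, -0.513 for Cd163 against Cd68 and -0.337 for Cd163 against Lyz2. Computed from CPM these were -0.428, -0.371, -0.387 and -0.331. Without both libraries that stood apart they were -0.611, -0.534, -0.277 and -0.202, all still below 0.

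Against Fcgr1, the resident-type genes had a higher mean difference in females than in males. Cd163 stood 3.93 ± 1.12 log2 TPM above Fcgr1 in females and 2.54 ± 0.83 above it in males (SD, n = 10 each). For Mrc1 the corresponding values were 3.90 ± 0.983 and 2.64 ± 0.787 (SD, n = 10 each). The ranges overlapped, 2.45 to 5.77 against 1.35 to 3.91 for Cd163, and Fcgr1 rests on few counts in females. Averaged over training, the male minus female difference was -1.39 for Cd163 and -1.26 for Mrc1 by TPM. Computed from CPM it was -0.901 and -0.647, and without both libraries that stood apart -1.02 and -1.05 by TPM. Against Cd68 and Lyz2 the male minus female difference by TPM was also below 0, and smaller. It was -0.445 and -0.381 for Cd163 and -0.312 and -0.249 for Mrc1, with overlapping ranges. The training difference against Fcgr1 changed sign with the scale, from -0.047 by TPM to 0.149 by CPM for Cd163. For Mrc1 it went from -0.224 to 0.105.

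**Figure D3:**
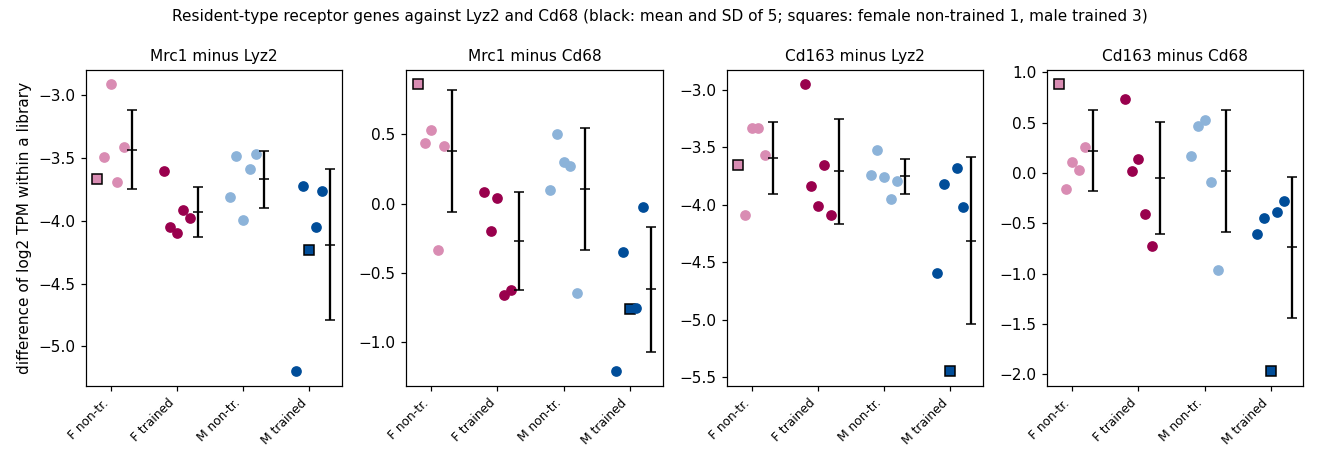
Difference of log2 TPM within a library between a resident-type gene (Mrc1 or Cd163) and Lyz2 or Cd68, by group. Points are libraries, black marks are the mean and SD of 5, and squares are female non-trained library 1 and male trained library 3. Trained means lie below non-trained means of the same sex in all 4 panels, with overlapping points.

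Within groups the members varied together from library to library. After subtracting group means from log2 CPM, Pearson's r between members over 20 libraries ran from 0.622 (Cd163 with Cd68) to 0.960 (C1qa with C1qb), with a median of 0.860 over 45 pairs. Without both libraries that stood apart the range was 0.503 to 0.965 and the median 0.800. Csf1r followed the mean of the other 9 members most closely (r = 0.966) and Cd163 least (0.816). These values describe libraries that also differ in depth and in the amount of other cells, and carry no test.

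The closest partner of Mrc1 and of Cd163 was Csf1r (r = 0.930 and 0.886), that of Cd68 was Adgre1 (0.913), and that of Fcgr1 was C1qb (0.907). Among genes outside the set with a mean of at least 1 CPM, the 10 most like the members' mean after removing group means were Fcgr2b (r = 0.983), Laptm5 (0.966), Ncf1 (0.962), Itgam (0.961), Stab1 (0.950), Lcp1 (0.950), Nckap1l (0.947), Unc93b1 (0.943), Itgb2 (0.940) and F13a1 (0.940). Fcgr2b encodes the inhibitory IgG receptor, Itgam and Itgb2 the chains of the integrin Mac-1, and Ncf1 a subunit of the phagocyte oxidase. All 10 were called higher in males averaged over training, from 1.05 for Stab1 to 1.86 for Itgam on the log2 scale.

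Other genes listed for resident macrophages were mostly higher in males as well, though which cells expressed them was not measured. Of 18 listed, 14 were higher in males averaged over training and 0 lower, with a median log2 difference of 1.23. Of all genes, 9.91% were called higher in that comparison. Within a training state 7 of 18 were called higher in non-trained and 6 of 18 in trained mice, beside 3.14% and 3.39% of all genes. This list and those below were also chosen with earlier results of these data known, so their counts are no independent evidence. Cbr2, a carbonyl reductase of resident macrophages, was 1.75 higher (SE 0.14, adjusted p = 7.82e-08), at 8.74 ± 2.94 CPM in female and 30.5 ± 4.54 CPM in male non-trained libraries (SD, n = 5 each). Clec10a, a lectin receptor, differed by 1.90, the chemokine gene Pf4 by 1.72 and Igfbp4 by 0.60. Lyve1 (0.65, adjusted p = 0.0782), Timd4 (0.9993, adjusted p = 0.0648), Gas6 and Maf did not pass, and Timd4 stayed at 0.056 to 1.42 CPM.

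Of 20 listed genes of inflammatory monocytes and macrophages, 14 were abundant enough to test, and 5 of these were higher and 0 lower (median 1.01). They were Ccr2, the receptor of recruited monocytes (2.33), the lipid-sensing receptor gene Trem2 (2.67), Gpnmb (1.12), Cd14 (1.25) and Lgals3 (1.38). The list is mixed, and Trem2, Gpnmb and Lgals3 are not confined to inflammatory cells. Within a training state, 0 of the 14 tested were called higher in non-trained and 3 in trained mice. Ly6c2, the Ly6C antigen of blood monocytes, stood at 0.456 to 2.11 CPM (0.35, adjusted p = 0.339). Nos2, the inducible nitric oxide synthase, stood at 2.08 to 4.27 CPM with a difference of -0.12 (adjusted p = 0.55). Il1b stood at 0 to 0.573 CPM and was too low to test, as were Tnf, Il6, Arg1, Cxcl2 and Clec4e.

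Ccr2 was also high in male trained library 3, with 49.21 CPM where the other 4 trained males held 3.69 to 7.02 CPM. The sex difference of Ccr2 given above includes library 3. Non-trained males 4 and 5 held 14.82 and 13.28 CPM, and the 10 females 0.587 to 4.31 CPM. In library 3 Lyve1 stood at 16.38 CPM, and in the remaining trained males at 5.29 to 11.11 CPM. Without both libraries that stood apart, 12 of 18 resident and 5 of 14 inflammatory genes were called higher.

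**Figure D4:**
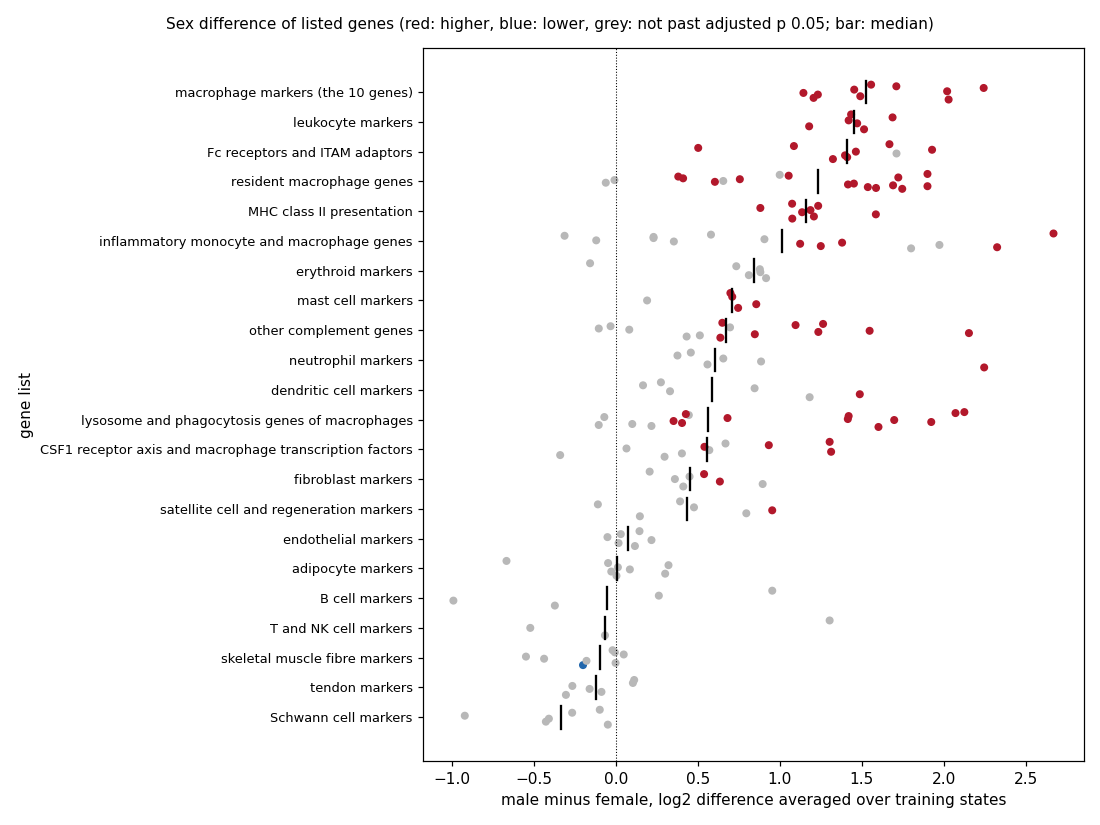
Log2 difference, male minus female averaged over training, of each tested gene in the 10 members and 21 other gene lists. Red points were called higher, blue lower and grey not called at an adjusted p of 0.05, and bars are list medians. The members (median 1.52) and leukocyte, Fc receptor and resident macrophage lists lie to the right of 0, while endothelial, adipocyte and muscle fibre lists lie near it.

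The pathways around the members were read from the same comparison, sex averaged over training. On the growth factor axis, 4 of 10 tested genes were higher, among them the receptor gene Csf2ra (1.31) and the transcription factor genes Spi1, which encodes PU.1 (1.304), and Irf8 (0.54). The ligand genes did not pass, Csf1 with 0.40 (adjusted p = 0.0522) and Il34 with 0.06 (adjusted p = 0.779). Of Fc receptors and their signalling adaptors 8 of 9 were higher (median 1.41), among them Tyrobp (1.67), Fcgr3 (1.40) and Fcgr2b (1.41).

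Among lysosome and phagocytosis genes 11 of 16 were higher (median 0.56), among them the scavenger receptor gene Msr1 (2.13), Mpeg1 (2.07) and Cybb (1.70). Lamp1 (-0.07), Ctsb (0.10) and Cd36 (-0.11), which many cells express, did not pass. Of other complement genes 8 of 14 were higher (median 0.67), including the anaphylatoxin receptor genes C3ar1 (2.15) and C5ar1 (1.55) and the inhibitor gene Serping1 (0.65). All 8 genes of antigen presentation on MHC class II were higher (median 1.16). Without both libraries that stood apart the counts were 4 of 10 growth factor axis genes, 5 of 9 Fc receptor and adaptor genes, 10 of 16 lysosome genes, 9 of 15 complement genes and 6 of 8 MHC class II genes. Of the 171 tested genes on all 21 lists 73 were called, and of these only Acta1, a muscle fibre marker, was lower. In non-trained mice alone, 1 of 10 growth factor axis, 0 of 9 Fc receptor and 0 of 16 lysosome genes were called higher. There, 7 of 14 complement and 0 of 8 MHC class II genes were. In trained mice alone the counts were 0, 4, 7, 2 and 0 in the same order. The medians of these lists stayed above 0 in both states.

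Markers of other cells moved with sex too, and their part in the members' difference was not tested. Of general leukocyte markers 6 of 6 were higher averaged over training (median 1.45), one of which, Laptm5, is also on the lysosome list. Within a training state 0 of 6 were called in non-trained and 3 of 6 in trained mice. The counts that follow are again averaged over training. Mast cell markers were higher for 4 of 5 (median 0.71), at 5.54 to 17.38 summed CPM in female and 7.49 to 32.36 in male libraries. Of neutrophil markers, 1 of 6 tested was higher (Csf3r, 2.25), their summed CPM was 1.21 to 9.03 in females and 1.93 to 20.66 in males, and the defining marker Ly6g stood at 0 in 17 of 20 libraries. Dendritic cell markers gave 1 of 6 (Cd209a, 1.49), and edgeR called 0 of 3 tested T and NK cell and 0 of 4 tested B cell markers. Of these 7 genes 1, the T cell gene Il7r (1.304, adjusted p = 0.0563), had an unadjusted p under 0.05, and DESeq2 called 1 T and NK cell and limma-voom 1 T and NK cell and 1 B cell gene.

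Fibroblast markers were higher for 2 of 7 (Dcn 0.63 and Pdgfra 0.54), at 118.4 to 676 summed CPM in females and 565.1 to 1056 in males. Of skeletal muscle fibre markers 1 of 8 was lower, Acta1, with a log2 difference of -0.20. Without both libraries that stood apart the counts were 5 of 6 leukocyte, 2 of 5 mast cell, 2 of 7 fibroblast and 0 of 8 muscle fibre markers, and 1 of 6 Schwann cell markers was lower. Of 6 satellite cell and regeneration markers 1 was higher, the neonatal myosin gene Myh8 (0.95). For adipocyte, tendon, endothelial, Schwann cell and erythroid markers 0 passed in edgeR's test averaged over training, and the list medians were 0.01, -0.12, 0.07, -0.34 and 0.84. Unadjusted p was under 0.05 for 0, 1, 0, 1 and 2 of these genes, and DESeq2 and limma-voom called 0. In trained mice 6 of 6 Schwann cell markers had a log2 difference below 0 (median -1.07), of which 4 had an unadjusted p under 0.05; edgeR called 0, DESeq2 3 and limma-voom 0. In non-trained mice edgeR called 2 of 6 erythroid genes higher in males, Alas2 (2.28) and Hba-a1 (1.92), where 3.14% of all genes were. DESeq2 called 5 of the 6 and limma-voom 0. Hbb-bs, at 82.5 to 502.5 CPM in 19 libraries, reached 1688 CPM in the fourth non-trained male. That library also had the highest Cd163 of all, and without it the averaged comparison still called 10 of 10 members. Fits of that comparison without 1 library called 2247 to 2909 genes in all. For training averaged over sexes, edgeR, DESeq2 and limma-voom each called 0 of the 171 tested genes on the 21 lists, of which 10 had an unadjusted p under 0.05. Each also called 0 for training within either sex. Unadjusted p in edgeR was under 0.05 there for 14 genes in females and 11 in males. Among them were 5 of 6 Schwann cell markers in females (list median 1.136) and 6 of 6 erythroid markers in males (list median -2.075).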

How the data were processed

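Poly(A) RNA in 20 libraries from muscle of wild-type mice was sequenced with a directional kit, per the labels' protocols. The authors deposited 1 table per library with expected counts, TPM and FPKM per gene, per the file headers; FPKM was not used. The submitters' processing notes name the build GRCm38 and, with no roles given, RSEM 1.3.1, STAR 2.5.1, limma, edgeR, cutadapt and Trim Galore. Symbols and positions came from GENCODE M21, which held 53274 of the 53465 gene identifiers.

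Deposited expected counts were rounded, filtered with filterByExpr (minimum count 10), scaled by TMM and fitted with 1 coefficient for each of 4 groups in edgeR 4.0.16 (robust quasi-likelihood, R 4.3.3, 16 residual degrees of freedom before moderation). P-values were adjusted by Benjamini-Hochberg over 15709 genes, and 0.05 was the threshold. The 7 comparisons were sex in each training state and averaged, training in each sex and averaged, and their interaction. The procedure was tested on simulated counts. Deposited TPM values served for levels per length and for differences of log2 TPM within a library. Log2 CPM used a prior count of 2.

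The members and gene lists were chosen with earlier results of these data known. Every member is named, and from each list up to 4 genes by the smallest unadjusted p, plus Timd4, Ly6c2, Ccr2, Il1b and Nos2. Other listed genes named (Trem2, Igfbp4, Gas6, Maf, Lyve1, Csf1, Il34, Lamp1, Ctsb, Cd36 and Ly6g) were chosen after their values were seen. Outside the lists, the 10 genes most correlated with the members' mean after removing group means (at least 1 CPM on average) were named. Alternatives were DESeq2 1.42.0, limma-voom (limma 3.58.1), RLE size factors, library size alone, no and stricter count filters, only the groups compared, a fit without the 20 highest genes and those of mitochondrial DNA, and fits without each single library. A fit without both female non-trained library 1 and male trained library 3 was added after the data were seen. Proteins of the C1q genes were not used here. Some genes on the lists are counted but not reported here by name.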

Additional observations from a re-analysis of the deposited data

Results flagged for a closer look

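In male trained mice, library 3 lay far from the other 4 libraries for 4 members on the unlogged CPM scale. Adgre1 stood there at 35.08 CPM, Cd68 at 27.61 CPM, Lyz2 at 349.9 CPM and Fcgr1 at 4.763 CPM. The gap to the next library, as a share of the group's range in CPM, was 0.804, 0.857, 0.792 and 0.835, above Dixon's 95% value of 0.71 for 5 samples. Among 40 combinations of member and group examined, these 4 exceeded it. Chance would give about 5% (2 of 40) for normally distributed values, but CPM are skewed and the members vary together. On log2 CPM, where high values lie closer, none of the 4 shares exceeds 0.71, so the flags rest on the unlogged scale. Cd163 in the same library, 24.78 CPM, was near the next highest, 23.08 CPM.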

How the results depend on the processing

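The averaged sex difference of all 10 members kept its direction and its call in all 28 alternatives, library by library included, with log2 differences from 0.97 to 2.41. In that comparison, leaving out 1 library gave 2247 to 2909 genes called in all. Within a training state every log2 difference stayed above 0, but calls changed. In non-trained mice DESeq2 called 10 members (1465 genes in all), library size alone 1, no count filter 1 and the compared groups alone 2 (448 genes). In trained mice limma-voom called 2 members, no filter 2 (558 genes), the compared groups alone 3, and DESeq2 1401 genes. Leaving out 1 library gave 1 to 10 members and 435 to 1038 genes in non-trained, and 0 to 8 members and 494 to 1239 genes in trained mice. Scaling by library size alone raised the share of calls that were higher in males from 60.3% to 75.0% in non-trained mice, from 60.5% to 79.6% in trained mice and from 55.2% to 75.1% averaged.

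For training, DESeq2 called 24 genes in females, 5 in males, 24 averaged and 1 in the interaction. Averaged over sexes, limma-voom called 0, no filter 1 and leaving out both libraries that stood apart 1. With 1 library left out the counts were 0 to 1 in females, 0 to 1 in males and 0 to 7 averaged.

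Signs of the small training differences changed; none was called. With limma-voom the log2 values were 0.185 (Mrc1, females), -0.122 (Mrc1, males) and 0.0819 (Cd163, averaged), and in the interaction -0.307 (Mrc1), -0.247 (Csf1r), -0.203 (Adgre1), -0.00754 (Cd68) and -0.0452 (Lyz2). Without both libraries they were -0.0364 (Csf1r) and -0.0204 (Adgre1) in females. In males they were -0.464 (Mrc1), -0.2003 (C1qa), -0.252 (C1qb), -0.125 (C1qc), -0.143 (Csf1r), -0.334 (Adgre1), -0.114 (Cd68), -0.037 (Lyz2) and -0.387 (Fcgr1). Averaged they were -0.352 (Mrc1), -0.0612 (C1qb), -0.0525 (C1qc), -0.0897 (Csf1r), -0.177 (Adgre1) and -0.0229 (Cd68), and in the interaction -0.225 (Mrc1), -0.107 (Csf1r), -0.314 (Adgre1), -0.183 (Cd68) and -0.239 (Lyz2). The cause was not tested.

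With 1 library left out, values in females ran from -0.042 to 0.402 (Csf1r), -0.0249 to 0.479 (Adgre1), -0.0157 to 0.387 (Cd163), -0.244 to 0.191 (Mrc1) and -0.0342 to 0.574 (C1qb). In males they ran from -0.474 to 0.326 (Mrc1), -0.211 to 0.307 (C1qa), -0.263 to 0.383 (C1qb), -0.136 to 0.293 (C1qc), -0.153 to 0.465 (Csf1r), -0.347 to 0.751 (Adgre1), -0.127 to 1.03 (Cd68), -0.0482 to 0.817 (Lyz2) and -0.399 to 0.465 (Fcgr1). Averaged they ran from -0.247 to 0.155 (Mrc1), -0.103 to 0.0971 (Cd163), -0.00351 to 0.334 (Csf1r) and -0.0782 to 0.501 (Adgre1). In the interaction they ran from -0.56 to 0.18 (C1qb), -0.417 to 0.092 (C1qc), -0.2996 to 0.318 (Csf1r), -0.454 to 0.364 (Mrc1), -0.537 to 0.558 (Adgre1), -0.418 to 0.737 (Cd68) and -0.385 to 0.479 (Lyz2).

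Low counts of Fcgr1 limit its ratios in females. No paired analysis was possible because replicate numbers were given here in accession order and pair no samples.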

Other observations

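Gpnmb and Trem2, from the list of inflammatory monocyte and macrophage genes, did not peak in the same trained male. Gpnmb was highest in male trained library 1 (29.91 CPM, against 18.12 CPM in library 3 and 8.08 to 11 CPM in the others of the group). Trem2 was highest in library 3 (5.12 CPM), followed by library 1 (2.77 CPM), with 0.316 to 1.38 CPM in the other trained males and 0 to 0.716 CPM in all females. In library 1 the 10 members summed to 229.1 CPM, against a group median of 231.4 CPM.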
